A study of Mus musculus with 7 samples.

Results

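The genes described are those of heme synthesis and of heme oxygenase 1, which begins heme breakdown. Members were the probes whose gene symbol in the platform annotation is Alas1, Alas2, Alad, Uros, Urod, Cpox, Ppox, Fech or Hmox1, which gave 9 probes of 23574, 1 for each of the 9 genes. The set was chosen on earlier results of these data, namely the genotype difference and the spread between livers of Alas1 and its pathway, so those values are given as a description without a test. Livers of 7 mice on a chow diet were profiled on 2-colour arrays: 3 from C3ar1-/- mice, whose deleted gene encodes the C3a receptor of the complement system, and 4 from their wild-type littermates. Each was hybridised against 1 common reference, RNA pooled from the livers of 6 wild-type mice on the same diet. Sex, age and strain of the mice, and the deleted part of C3ar1, are not given in the sources used here. Numbers follow the labels, which name wild-type livers 1 to 4 and knockout livers 2 to 4.

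Each value is a log ratio of 1 liver to the pool, read here in base 10. A positive value most likely means more signal in the liver than in the pool, which rests on the order of names in the titles. Both the base and the direction are assumed. If the ratio ran the other way, high and low would change places throughout. The ratios show no absolute level, so whether liver or erythroid markers are present cannot be read from them, and signal over background was not analysed here. In whole liver, fewer cells of a type and less RNA per cell cannot be told apart. The SD over probes was widest in knockout liver 2, at 0.0975, and 0.0466 to 0.0676 in the other livers. The C3ar1 probe read 0.00420, 0.0337 and 0.0514 in the knockouts and -0.0318 to 0.0264 in the wild types, and since it may lie outside the deletion it does not check the labels.

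Heme is the iron porphyrin of hemoglobin, of the cytochromes and of the cytochrome P450 enzymes that hepatocytes make in bulk. The pathway begins in mitochondria with 5-aminolevulinate synthase, passes through the cytosol and returns to mitochondria for its last steps. Alas1 encodes the form of that first enzyme found in most tissues; in liver it limits the rate of the pathway, is held down by heme, and rises in fasting and after drugs. Alas2 encodes the form used by red cell precursors. Heme oxygenase 1, from Hmox1, opens the heme ring and is prominent in Kupffer cells, the macrophages of the liver, which take up old red cells.

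The promoters of the first-step genes Alas1 and Alas2 are shown because their values parted in 1 liver, as given below. Both are the 250 bases before a start site in RefSeq, build GRCm38.p6. Alas1 lies at chr9:106247731-106247980 on the minus strand and is the start nearer the gene body of the 2 listed, and Alas2 lies at chrX:150547167-150547416 on the plus strand. Capitals mark every match to 5 motifs searched on both strands. The motifs were chosen with the sequences in view, and were the NRF1 core GCATGCG, whose matches on the 2 strands overlap here, the E-box CACGTG, the GATA site AGATAA, the CCAAT box CCAAT and the antioxidant response core TGACNNNGC.
Alas1: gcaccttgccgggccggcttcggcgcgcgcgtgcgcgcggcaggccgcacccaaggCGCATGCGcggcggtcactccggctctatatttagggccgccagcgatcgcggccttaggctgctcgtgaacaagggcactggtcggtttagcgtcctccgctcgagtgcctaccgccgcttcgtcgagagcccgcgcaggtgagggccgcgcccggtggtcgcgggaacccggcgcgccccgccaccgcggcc
Alas2: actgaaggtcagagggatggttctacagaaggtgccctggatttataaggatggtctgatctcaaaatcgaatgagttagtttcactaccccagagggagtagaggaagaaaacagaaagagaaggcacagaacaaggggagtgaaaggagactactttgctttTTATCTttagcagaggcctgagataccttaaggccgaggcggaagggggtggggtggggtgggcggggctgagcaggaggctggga

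RefSeq promoter windows of 300 bases, 250 before and 50 after a start, were found for 7 of the 9 genes, in 10 windows. No window was found for Fech or Hmox1, so their promoters were not searched for any of the motifs. The NRF1 core, part of the site bound by a regulator of nuclear genes for mitochondria, was matched in Alas1 and in no other member found, against 3.58% of all 32851 windows. The 2 windows of Alas1 overlap, and the match lies in their shared stretch. The GATA site, bound by the red cell factor Gata1, was matched in Alas2 and Cpox, against 11.2% of windows. The E-box, which clock proteins can bind, was matched in Alad, Uros and Urod and not in either Alas1 window, against 7.15%. CCAAT boxes were matched in Alad, Urod and Ppox, against 37.4%, and the antioxidant response core in none of the 10 windows, against 12.4%. A match is a description of the letters and not of binding.

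Alas1 stood far below the pool in a single liver. Its log10 ratio was 0.117, 0.168, 0.119 and -0.0864 in wild-type livers 1 to 4, and 0.264, 0.0954 and -0.938 in knockout livers 2, 3 and 4. Knockout liver 4 was the low liver, by 0.851 below the next lowest, wild-type liver 4, and the other knockouts lay among or above the wild types. The value in knockout liver 4 corresponds to 8.66-fold below the pool in base 10, and would be 1.92-fold if the deposited values were in base 2. On that array only 4 probes of 23574 read lower: those of Dmbt1, a mucosal glycoprotein, of the lipid droplet genes Cidea and Cidec, and 1 probe with no listed gene. Of these, Dmbt1 read below -1.2 in 6 of the 7 livers, so only its value in wild-type liver 2 stood apart. In 5 of the 7 livers Alas1 read above the pool, and there it was among the 426 highest probes of each array.

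The genotype means of Alas1 were -0.193 ± 0.651 (SD, n = 3) in the knockouts and 0.0795 ± 0.113 (SD, n = 4) in the wild types. Their difference of -0.272 ± 0.261 (SE) was about as large as its own error, with a 95% interval from -0.879 to 0.334. Without knockout liver 4 the difference turned to 0.10 ± 0.0780. Over the 7 livers the SD of Alas1 was 0.411, rank 12 of all probes, and over the 6 livers without knockout liver 4 it was 0.115, rank 907. The large spread of Alas1 therefore came from that liver, while the remaining spread still placed it in the top 3.85% of probes.

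**Figure D1:**
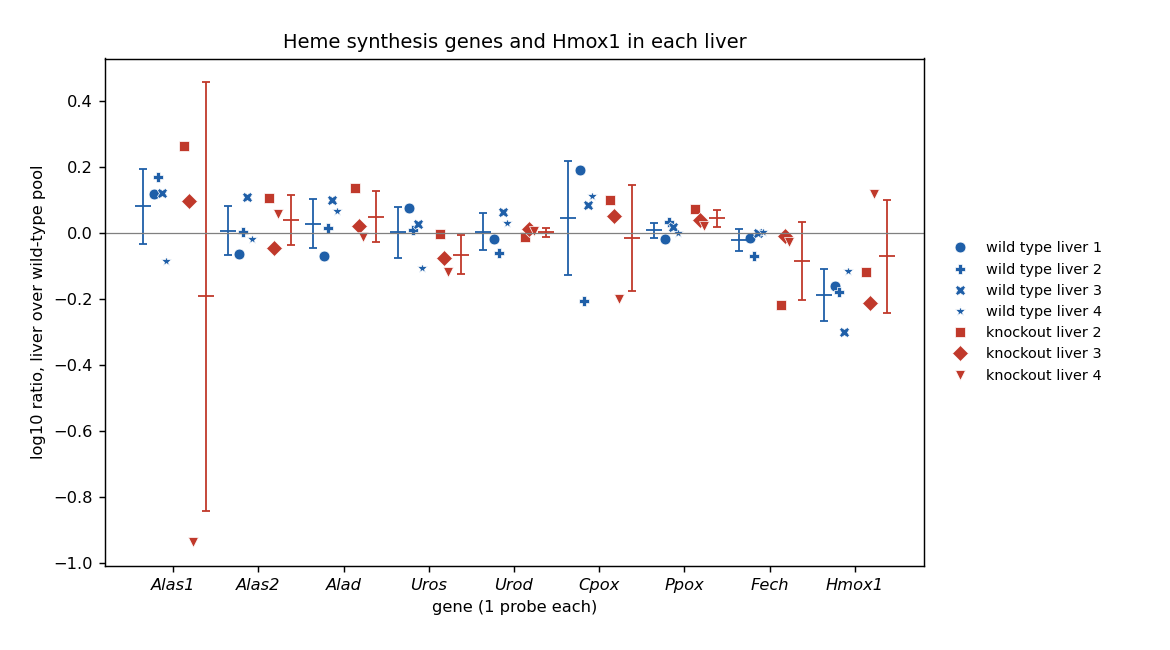
Log10 ratio to the wild-type pool (vertical axis) of the 9 heme genes (horizontal axis) in each liver, with wild types in blue and knockouts in red, 1 symbol per liver, and bars giving mean ± SD of each genotype. Alas1 at -0.938 in knockout liver 4 lies apart from every other point, and Hmox1 is above 0 only in that liver.

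Alas2, the red cell paralogue, was not low in knockout liver 4. It read -0.0650, 0.00130, 0.108 and -0.0190 in wild-type livers 1 to 4 and 0.104, -0.0452 and 0.0560 in knockout livers 2 to 4. The highest value of each genotype nearly coincided, and knockout liver 4 lay in the upper part of the range. The difference was 0.0320 ± 0.0484 (SE). Whether liver RNA gave signal above background on this probe was not analysed here.

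The cytosolic enzymes followed with small differences. Alad, which joins 2 molecules of aminolevulinate into porphobilinogen, ranged from -0.0697 in wild-type liver 1 to 0.135 in knockout liver 2, and its genotypes differed by 0.0204 ± 0.0488 (SE). Uros, which closes the tetrapyrrole ring, read 0.0750, 0.00980, 0.0258 and -0.106 in wild-type livers 1 to 4 and -0.00350, -0.0765 and -0.120 in knockout livers 2 to 4. Its lowest values were those of knockout liver 4 and wild-type liver 4, the livers in which Alas1 was also lowest, and the genotypes overlapped. The knockout mean of Uros was lower by -0.0680 ± 0.0458 (SE), and by -0.0412 without knockout liver 4. Urod, which turns uroporphyrinogen into coproporphyrinogen, spanned -0.0617 to 0.0638, both in wild types, and the genotypes differed by -0.00255 ± 0.0306.

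Among the enzymes of the last 3 steps, which lie in mitochondria, Cpox varied most. Cpox, coproporphyrinogen oxidase, read 0.189, -0.207, 0.0843 and 0.110 in wild-type livers 1 to 4 and 0.0988, 0.0519 and -0.200 in knockout livers 2 to 4. The low livers were wild-type liver 2 and knockout liver 4, 1 of each genotype, and the other 5 were all above 0. Its difference was -0.0604 ± 0.105 (SE) and turned to 0.0313 without knockout liver 4. In wild-type liver 2, where Cpox was lowest, Alas1 read 0.168, so the pair was low together in knockout liver 4 only. The SD of Cpox was 0.157, rank 330 of all probes.

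Ppox, which oxidises protoporphyrinogen, was the steadiest member. Its values lay between -0.0199 and 0.0322 in the wild types and between 0.0211 and 0.0715 in the knockouts, and its SD of 0.0293 was below the median of 0.0364 over all probes. The other 8 members lay above that median. The knockout mean of Ppox was higher by 0.0367 ± 0.0210 (SE), with overlapping genotypes. Fech, the ferrochelatase that inserts iron, read -0.0159, -0.0714, -0.00120 and 0.00230 in wild-type livers 1 to 4 and -0.220, -0.00840 and -0.0267 in knockout livers 2 to 4. The low liver was knockout liver 2, the array of widest spread, on which 3.46% of all probes read at or below Fech. The difference of Fech was -0.0635 ± 0.0509 (SE) and 0.00400 without knockout liver 2.

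Hmox1 was the only member above the pool in knockout liver 4 and below it everywhere else. It read -0.163, -0.178, -0.301 and -0.117 in wild-type livers 1 to 4 and -0.119, -0.213 and 0.117 in knockout livers 2 to 4. Wild-type liver 3 was the lowest and knockout liver 4 the highest, with the other knockouts inside the range of the wild types. The difference was 0.118 ± 0.0779 (SE), and 0.0233 ± 0.0534 without knockout liver 4. The wild-type livers all read below a pool that is itself of wild-type liver, on average at -0.190 ± 0.0785 (SD, n = 4).

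Markers of macrophages and Kupffer cells moved with Hmox1 over the livers. Of 20 genes listed 19 were measured, by 21 probes, of which 18 were highest in knockout liver 4 and 15 lowest in wild-type liver 3. Over all probes knockout liver 4 was highest in 13.5% and wild-type liver 3 lowest in 11%. The summed log10 ratio of the list was -4.59 to -1.03 in the wild types and -2.24, -2.95 and 2.02 in knockout livers 2, 3 and 4. Their part in the Hmox1 values was not tested. By genotype 0 of the 21 probes passed limma after adjustment over all probes (adjusted p from 0.884 to 0.995). At an unadjusted p under 0.05, 1.86% of all probes were higher and 2.61% lower in the knockouts. Of the 21 probes 2 lay under that limit, both higher in the knockouts. These were Spic, the transcription factor of iron-recycling macrophages, higher by 0.152 ± 0.0459 (SE), and the scavenger receptor Marco at 0.365 ± 0.153. Marco read 0.117, -0.386 and 0.372 in knockout livers 2 to 4 and -0.381 to -0.291 in the wild types, so knockout liver 3 was the lowest of all, and without knockout liver 4 the difference was 0.196. The complement gene C1qa differed by 0.108 ± 0.0518. The median difference of the list was 0.0391 and turned to -0.0199 without knockout liver 4, and was 0.0859 without knockout liver 2.

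Set side by side, the genotype differences of the members had no common direction. The differences of 4 members were above 0 and those of 5 below, with a median of -0.00255, against 0.00555 over all probes. By limma 0 of the 9 members passed at an adjusted p under 0.05, where 1 probe of 23574, or 0.00424%, did: that of A2ml1, a protease inhibitor. At an unadjusted p under 0.05 the members gave 0, against 4.47% of all probes, 1.86% higher and 2.61% lower in the knockouts. The genotypes did not overlap in 0 of the 9, against 5.26%. These counts use the contrast with which the list was drawn up and are given as a description. None of the members lies on chromosome 6, the chromosome of C3ar1 and A2ml1. With 3 knockouts and 4 wild types, the 95% intervals were widest for Alas1 and Cpox, from -0.305 to 0.184 in the latter.

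**Figure D2:**
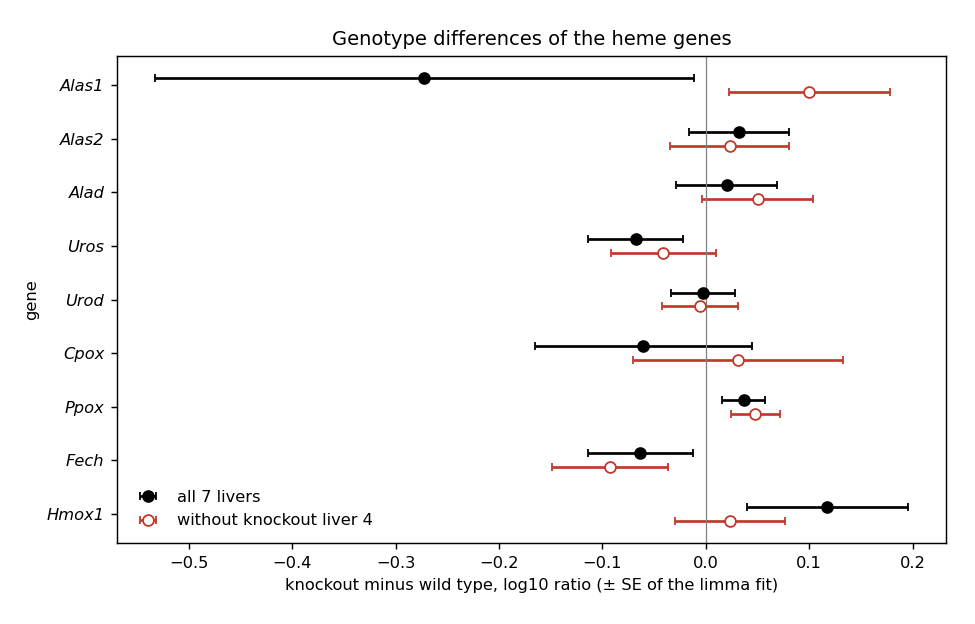
Knockout minus wild type in the log10 ratio (horizontal axis, ± SE of the limma fit) for each heme gene (vertical axis), with all 7 livers in black and without knockout liver 4 in open red circles. Alas1 moves from -0.272 to 0.10 and Cpox from -0.0604 to 0.0313. The others keep their sign, with Hmox1 falling from 0.118 to 0.0233.

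**Figure D3:**
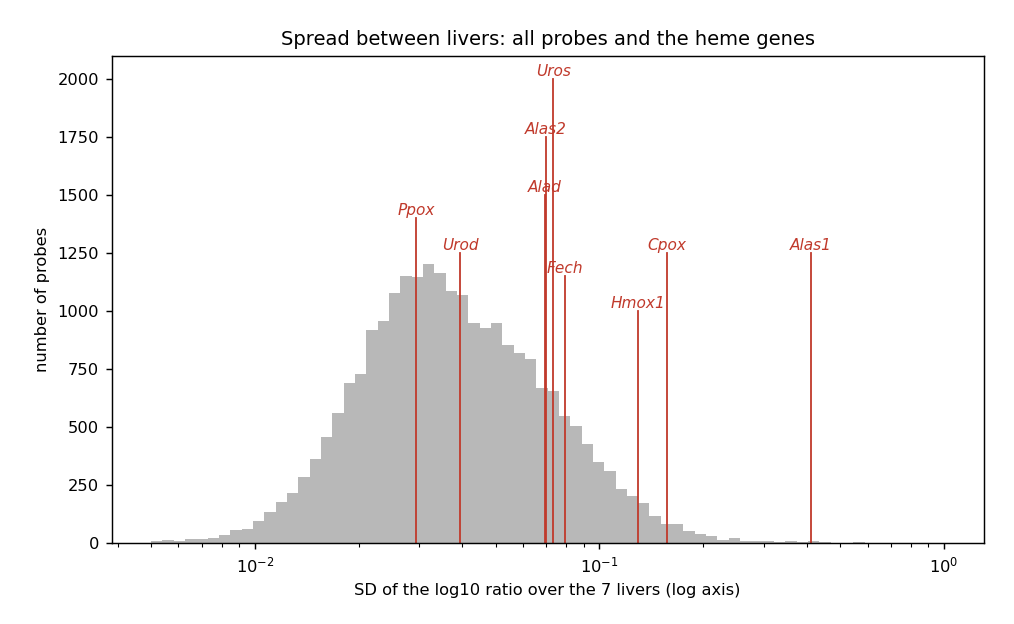
Number of probes (vertical axis) by the SD of their log10 ratio over the 7 livers (horizontal log axis), with red lines marking the 9 heme genes at arbitrary heights. Alas1 at 0.411 lies at the far right of the distribution, Cpox and Hmox1 at 0.157 and 0.129 in its upper tail, and Ppox at 0.0293 left of the median.

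The other members were set against Alas1 over the 7 livers, in 8 relations. The set was chosen on the spread between these same livers, so r and rho are given as a description without a test. Hmox1 had the strongest, with a Pearson r of -0.856 and a Spearman rho of -0.464. It rests on knockout liver 4, since r was -0.0851 without that liver and 0.656 without knockout liver 4 and wild-type liver 4, the livers farthest from the median of Alas1. Uros had r = 0.662 and rho = 0.643, with r = 0.595 without knockout liver 4 and 0.0411 without the same pair of livers. For the other 6 members r lay between -0.310 for Fech and 0.545 for Cpox. Most of these values changed without knockout liver 4, to -0.231 for Cpox, 0.485 for Alas2, 0.663 for Ppox, -0.452 for Urod, 0.187 for Alad and -0.757 for Fech. Without the pair of livers farthest from the Alas1 median, r was -0.985 for Fech, over 5 livers. It rests on knockout liver 2, where Fech was lowest and Alas1 highest, since r for Fech was -0.00982 without that liver. With values centred within each genotype, r with Alas1 was -0.836 for Hmox1 and 0.599 for Uros.

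Genes whose profile over the 7 livers was most like that of Alas1 were sought among 95 named genes with an SD at least 0.5 times that of Alas1. The 5 with the highest Pearson r were Cyp4a31, a fatty acid hydroxylase of the P450 family (r = 0.848, rho = 0.500), Tcim (r = 0.827, rho = 0.464), the ubiquitin protease Usp2 (r = 0.826, rho = 0.607), the fatty acid transporter Cd36 (r = 0.824, rho = 0.571) and Cyp7a1, the rate-limiting enzyme of bile acid synthesis (r = 0.823, rho = 0.357). All 5 read lowest in knockout liver 4, from -0.745 for Cd36 to -0.378 for Usp2. The 3 most opposite were Moxd1 (r = -0.936, rho = -0.429), Tnfaip2 (r = -0.906, rho = -0.500) and the metalloreductase Steap4 (r = -0.903, rho = -0.893). Each of the 3 was highest in knockout liver 4, with Steap4 at 0.448 there and -0.439 to 0.0532 elsewhere. Since these genes were picked for their r, no test is given. Without knockout liver 4 the 5 highest values fell to between 0.0509 and 0.334, while r was -0.628 for Steap4, -0.253 for Tnfaip2 and -0.153 for Moxd1.

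**Figure D4:**
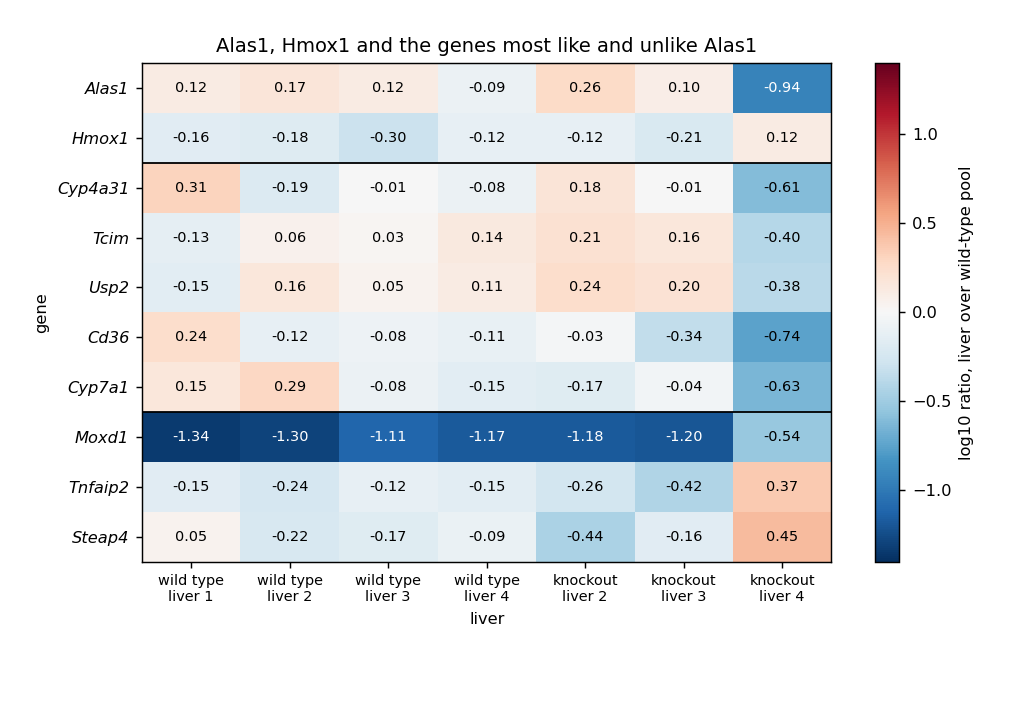
Log10 ratio to the pool (colour and printed value) of Alas1, Hmox1, the 5 genes most like Alas1 and the 3 most opposite (rows) in each of the 7 livers (columns). Every gene of the middle block is lowest in knockout liver 4, where Alas1 is at -0.94, and every gene of the lowest block is highest there.

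Related genes were read from 11 lists with 210 probe entries in all, of which 0 passed limma over all probes. At an unadjusted p under 0.05 there were 15, 5 higher and 10 lower in the knockouts, or 7.14%, against 4.47% of all probes. Without knockout liver 4 there were 19, against 4.76% of all probes, and without knockout liver 2, the array of widest spread, 14, against 3.47%. The medians of 4 of the 11 lists turned sign without knockout liver 4. In heme synthesis, carriers and cofactors outside the members (18 of 21 genes measured, 19 probes) 0 passed in either direction and the median difference was -0.00597, or -0.0291 without knockout liver 2. Pgrmc1, a heme-binding membrane protein that can associate with ferrochelatase, differed by -0.0963 ± 0.0225 (SE, limma, adjusted p = 0.884). It read -0.107, -0.0390 and -0.0939 in knockout livers 2 to 4 and -0.00490 to 0.0408 in the wild types, so the genotypes did not overlap. Glrx5, which helps build iron-sulfur clusters, differed by -0.0897 ± 0.0436, with -0.173 in knockout liver 4, and by -0.0354 without that liver. The sulfur donor gene Nfs1 differed by -0.0758 in 1 probe and by 0.0124 in the other.

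In heme breakdown, transport and scavenging (17 of 20 genes, 17 probes) 0 passed, and the median difference of -0.00228 turned to 0.0197 without knockout liver 4. Hmox2, the constitutive heme oxygenase, was at 0.0328, 0.114 and 0.0337 in knockout livers 2 to 4 and at -0.0333 to 0.0316 in the wild types. Unlike Hmox1, its highest value was in knockout liver 3, and its difference of 0.0653 ± 0.0269 (SE) did not pass (limma, adjusted p = 0.884). Hpx, the plasma protein that scavenges heme, read -0.0461, -0.00210 and 0.189 in knockout livers 2 to 4 and -0.0883 to -0.0512 in the wild types. Hpx and Hmox1 thus both had their highest value in knockout liver 4, and the difference of Hpx fell from 0.118 to 0.0465 without it. The uptake carrier Slco1b2, whose gene lies on chromosome 6, differed by -0.171 ± 0.0677 (adjusted p = 0.884).

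Iron genes (14 of 18 measured, 15 probes) gave 0 that passed, and a median difference of 0.0244. The plasma iron carrier Trf differed by 0.0956 ± 0.0473 (SE), the hepatocyte iron sensor Tfr2 by 0.0393 ± 0.0204 and the ferroxidase Cp by 0.0674 ± 0.0363, all with an adjusted p of 0.884 by limma. In each of these 3 the genotypes overlapped. Both Trf and Cp were highest in knockout liver 4, at 0.137 and 0.129, and without it the difference of Cp was 0.0391.

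Enzymes that carry heme are the main users of the product of Alas1 in liver. Of 33 measured genes of 34, read by 38 probes, 28 probes had a difference below 0 and 10 above, with a median of -0.0569 and 0 that passed. Knockout liver 4 was the lowest liver in 15 of the 38, or 39.5%, against 14.7% of all probes. Other livers also departed from their shares over all probes. Wild-type liver 1 was the highest in 14, or 36.8%, against 14.4%, and knockout liver 3 in 10, or 26.3%, against 6.41%. The median was -0.00254 without knockout liver 4 and -0.0342 without knockout liver 2. Cyp7a1 read -0.172, -0.0408 and -0.635 in knockout livers 2 to 4 and -0.152 to 0.289 in the wild types, a difference of -0.335 ± 0.157 (SE, adjusted p = 0.884) that was -0.159 without knockout liver 4. Suox, the sulfite oxidase, read -0.0742 to -0.0591 in the knockouts and -0.0284 to 0.0175 in the wild types without overlap, and cytochrome c (Cycs) differed by -0.0623 ± 0.0288 (both adjusted p = 0.884 by limma).

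Xenobiotic receptors and their targets, which are induced alongside Alas1 by drugs, were measured in 16 of 18 genes by 19 probes, and 0 passed. Knockout liver 4 was the lowest in 10 of the 19, or 52.6%, against 14.7% of all probes, and the highest in 0, against 13.5%. Wild-type liver 1 was the lowest in 6, or 31.6%, against 16.7%. Knockout liver 2 was the highest in 7, or 36.8%, against 29.0%. The aldehyde dehydrogenase Aldh1a7 read -0.0977, -0.0599 and -0.136 in knockout livers 2 to 4 and 0.00900 to 0.0675 in the wild types, a difference of -0.138 ± 0.0240 (SE, limma, adjusted p = 0.879). Its close relative Aldh1a1 differed by -0.116 ± 0.0403, also without overlap, and signal shared between such similar genes cannot be told apart here. The drug efflux pump gene Abcb1a differed by -0.244 ± 0.0983. Without knockout liver 4, Abcb1a differed by -0.143 and Aldh1a1 by -0.0715. The list median was -0.00756 and turned to 0.0294 without knockout liver 4, and was -0.0388 without knockout liver 2.

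Fasting raises Alas1 in liver through the coactivator encoded by Ppargc1a. In the fasting list (17 of 18 genes, 18 probes) 12 differences were above 0 and 0 passed, with a median of 0.0501. At an unadjusted p under 0.05 there was 1 of the 18, against 4.47% of all probes. Without knockout liver 4 there were 5, with a median of 0.0614, where 4.76% of all probes lay under that limit. Without knockout liver 2 there were 0, with a median of 0.0235, where 3.47% of all probes did. Pck1, the gluconeogenic carboxykinase, differed by 0.134 ± 0.0446 (SE), glucose-6-phosphatase (G6pc) by 0.138 ± 0.0801 (0.211 without knockout liver 4) and Fbp1 by -0.0658 ± 0.0378 (adjusted p = 0.884 for each, limma). In knockout livers 2 to 4 Ppargc1a, picked after its values were seen, read 0.223, 0.184 and -0.0440, and Pck1 read 0.271, 0.157 and 0.142. In wild-type livers 1 to 4 Ppargc1a read -0.0925, 0.186, -0.0951 and 0.167, and Pck1 read 0.0368, 0.00400, 0.0299 and 0.153. Ppargc1a was thus lowest in wild-type livers 1 and 3, not in knockout liver 4. Over the list, knockout liver 4 was lowest in 2 of the 18 probes and highest in 3, against 14.7% and 13.5% of all probes. Genes driven by feeding (11 of 12, 11 probes) gave 0 that passed and a median of -0.0236, which turned to 0.0306 without knockout liver 4. In that list wild-type liver 1 was lowest in 7 of the 11 probes, against 16.7% of all probes. Wild-type liver 2 was highest in 7, against 14.8%. Alas1 read 0.117 and 0.168 in those livers. The part of fasting or feeding in the Alas1 values was not tested. Of its named genes, Mlxipl differed by 0.142 ± 0.0703, Pklr by 0.0364 ± 0.0223 and Me1 by -0.114 ± 0.109. Without knockout liver 4, Mlxipl differed by 0.0938 and Me1 by -0.0319.

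Clock genes (16 of 19 measured, 18 probes), which set the daily course of Alas1 in liver, gave 0 that passed and a median difference of 0.00113. Knockout liver 4 was the lowest or highest liver in 9 of the 18, against 28.2% of all probes, and wild-type liver 2 in 10 of the 18, against 37.5%. Per2 read 0.104, 0.0234 and -0.228 in knockout livers 2 to 4 and -0.120 to 0.172 in the wild types, and its difference of -0.109 was -0.0122 without knockout liver 4. Arntl, Nr1d1 and Nfil3, picked after their values were seen, were highest in that liver, at 0.286, 0.204 and 0.198, against at most 0.0469, -0.00860 and 0.0945 in the other 6. Per3 differed by 0.0621 ± 0.0228 (SE, limma, adjusted p = 0.884) without overlap, and the 2 probes of Hlf by 0.0625 and -0.0443. The second Hlf probe turned to 0.0123 without knockout liver 4. Their part in the Alas1 value of knockout liver 4 was not tested.

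Oxidative stress genes, which share the regulator Nfe2l2 with Hmox1, were read beside it. Of 17 probes of 17 measured genes from 19, 0 passed. Knockout liver 4 was highest in 3, or 17.6%, against 13.5% of all probes. Osgin1, a growth inhibitor, was 1 of the 3, at 0.239, with a difference of 0.105 ± 0.0688 (SE), or 0.0165 without that liver. Nfe2l2 itself read -0.163 to -0.0466 in the knockouts and -0.0460 to 0.0732 in the wild types, a difference of -0.0940 ± 0.0382 (limma, adjusted p = 0.884). The cystine carrier Slc7a11 differed by 0.0380 ± 0.0223. The list median was 0.00219, or 0.0122 without knockout liver 4 and -0.0126 without knockout liver 2.

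Red cell markers were read beside Alas2. Of 24 genes 16 were measured by 17 probes, with 0 that passed. Of the 17 differences 8 were above 0 and 9 below, with a median of -0.0170, which was -0.00338 without knockout liver 4 and -0.00843 without knockout liver 2. Their summed log10 ratio was -0.425 to 0.607 in the wild types and -0.671 to -0.444 in the knockouts. That sum includes Car2 and both probes of Hbb-b1. The median of the list in each liver overlapped, at -0.0177 to 0.0340 in the wild types and -0.00390 to 0.00860 in the knockouts. Car2, a carbonic anhydrase that red cells share with other cells, read -0.272 to -0.229 in the knockouts and -0.0725 to 0.0839 in the wild types. Its difference of -0.252 ± 0.0382 (SE) did not pass (limma, adjusted p = 0.456). The 2 probes labelled Hbb-b1, a beta globin with near-identical copies, differed by -0.148 and -0.135, and Epb42, of the red cell membrane, by -0.0620, or -0.0396 without knockout liver 4. The alpha globin Hba-a1 differed by -0.0391, and Slc4a1, the band 3 anion exchanger, by 0.0200, both picked after their values were seen. Alas2 itself differed by 0.0320, on the other side of 0 from the globin probes. The part of red cell RNA in the Alas2 values was not tested.

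**Figure D5:**
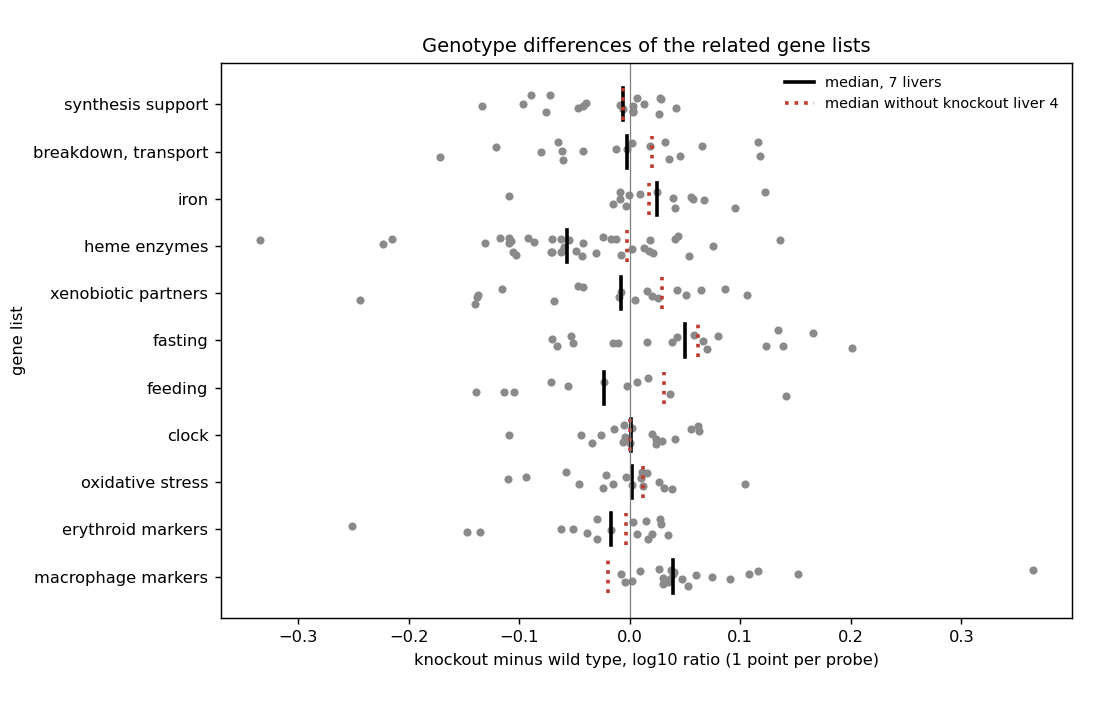
Knockout minus wild type in the log10 ratio (horizontal axis) of each probe (grey points) in the 11 related gene lists (vertical axis), with the list median over all 7 livers as a black line and without knockout liver 4 as a dotted red line. The median of the heme enzymes moves from -0.0569 to -0.00254 and that of the macrophage markers from 0.0391 to -0.0199.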

How the data were processed

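Per the labels' protocols, total RNA was purified on spin columns with DNase, amplified with aminoallyl coupling and labelled with Cy3 or Cy5. The authors deposited a log ratio per probe and array, read here as log10. Its base, direction and normalization, and how the dye swap named in the design text was merged, are not given in the sources used here. Column values had medians from -0.000800 to 0.0139, and 0 of the value columns went unused. Probes were named through the platform annotation, updated to GRCm38.p6 symbols (17824 probes with 1 symbol, 50 with several, 5700 with none).

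Knockout was set against wild type with limma 3.58.1 in R 4.3.3 (lmFit, eBayes without trend, two-sided). Adjusted p-values (Benjamini-Hochberg) cover the whole table of 23574 probes, with 0.05 as the threshold. The p-values measure the spread between these mice. All members were named, per list up to 3 genes of smallest p, the 5 genes of highest and 3 of lowest r with Alas1, and genes named beyond that are marked as picked after their values were seen. The members and lists were chosen with earlier results of these data known. The fit was tested on simulated data with a residual SD of 0.0351 for every probe. There 46% of changes of 0.1 and 100% of changes of 0.2 were recovered, with 14 false calls. Within each genotype Alas1, Alas2, Alad, Uros, Cpox and Hmox1 varied more than that. Urod did so in the wild types and Fech in the knockouts. The simulation therefore does not give the power for these genes. Alternatives were other scalings and variance models, averaged probes, a filter on variation, array weights, a replicate block and each array left out.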

Additional observations from a re-analysis of the deposited data

Results flagged for a closer look

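Among the wild types, 1 liver stood apart from the other 3 in 2 of 53 probes or genes checked, where chance gives about 1 in 20. The iron oxidase Cp read -0.0668 in wild-type liver 3, against 0.0173 to 0.0346 in the others. The fatty acid transporter Cd36 read 0.243 in wild-type liver 1, against -0.118 to -0.0753 in the others. None of the 9 heme genes was among them. The knockouts were not checked this way, so the Alas1 value of knockout liver 4 was not part of this check.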

How the results depend on the processing

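Of the 9 heme genes, 0 passed under any of the 16 alternatives, or 15 for Ppox, whose probe is left out by the filter on variation. The difference of Alas1 ranged from -0.501 to 0.10 when single livers were left out, above 0 only without knockout liver 4, and from -0.336 to -0.149 under the other alternatives. Its SD over the livers was 0.302 after quantile normalization. Uros, Ppox and Hmox1 kept their sign under all alternatives run, while the sign turned in 5 for Urod, 3 for Alad, 2 for Alas2 and 1 each for Alas1, Cpox and Fech. The number of probes called among all was 0 after quantile or scale normalization and with the trend, 4 when probes of low variation were dropped, and 0 to 3 with single livers left out. With a replicate block it was 0, and Alas1 differed by -0.260. Livers of the same number had correlations of -0.137, -0.205 and -0.154 in their deviations, and 0 of 6 correlated best with its own number. Over so few livers this check cannot exclude a shared litter or batch. The list entries called stayed at 0 without knockout liver 4 or 2, a choice made after seeing the data. After quantile normalization r with Alas1 was -0.820 for Hmox1 and 0.65 for Uros. Signal over background was not analysed here, so a small spread, as in Ppox, may include probes near it.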

Other observations

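Some heme enzymes of the P450 family were low in 1 liver of each genotype, a pattern picked after the values were seen. Cyp2b9 read -0.557 in wild-type liver 3 and -0.579 in knockout liver 4, and 0.0898 to 0.278 in the other 5 livers. Its relative Cyp2b13 read -0.512 and -0.593 in the same livers and 0.0768 to 0.274 elsewhere, and Cyp2b10 read -0.248 and -0.214, against -0.0260 to 0.239. The metal-binding gene Mt2 followed them, at -0.559 and -0.408, against 0.0283 to 0.239. Alas1 did not, reading 0.119 in wild-type liver 3. The Cyp2b genes are close in sequence, and signal shared between their probes cannot be told apart. Of the 21 macrophage marker probes, 15 were lowest in wild-type liver 3, where these genes were low too, and 18 were highest in knockout liver 4, where these genes were low.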
